A study of Mus musculus with 4 samples.

Results

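Olanzapine and quetiapine are antipsychotic drugs that share an azepine-type ring fused between aromatic rings, and the pair was taken from the labels of 2 of the 4 arrays of a study of antipsychotic drugs in the frontal cortex of mice. For each gene the log2 ratio of drug over vehicle was read on both arrays, and the quetiapine value was subtracted from the olanzapine value. Olanzapine is a thienobenzodiazepine and carries a methylpiperazine group, and quetiapine is a dibenzothiazepine whose piperazine carries a hydroxyethoxyethyl chain. Male ddY mice, an outbred laboratory stock, were 13 weeks old and weighed 38 to 43 g. They received olanzapine at 1.25 mg/kg, quetiapine fumarate at 18.75 mg/kg, or vehicle, by intraperitoneal injection once a day for 28 days, with the drugs in saline containing acetic acid. The other 2 arrays held the phenothiazines chlorpromazine and thioridazine, both as hydrochlorides at 25 mg/kg. RNA of drug-injected mice was labelled with cyanine 5 and RNA of vehicle-injected mice with cyanine 3 on each 2-colour array. The number of mice behind an array, and whether 1 vehicle RNA was used for several arrays, are not given in the sources used here.

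Both drugs block dopamine and serotonin receptors, and both also bind histamine and adrenergic receptors; olanzapine binds muscarinic receptors as well. Dopamine and serotonin act on cortical neurons largely through G protein-coupled receptors, whose signalling can reach the nucleus and modulate the transcription of activity-regulated genes. Both drugs are known for sedation and for weight gain.

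Each drug had 1 array, so no difference here was tested, no p-value is given, and every value describes these 2 arrays. The doses in mg/kg differed; per the labels they were meant to be therapeutically equivalent, so the values are set side by side and drug cannot be told apart from dose. A log2 unit is a 2-fold step. The deposited values were read as log10 ratios of drug over vehicle, which is likely from the dyes and the scanner software but is not stated for the table. If they were log2 already all values would be smaller, and if the direction were the reverse all signs would turn. A dye bias or a vehicle RNA common to both arrays would cancel in the difference of the 2 ratios, but not in the ratio of either drug to vehicle. Both names of the drugs rest on the labels, since no gene on the array identifies a drug, and ratios cannot show whether genes that mark cortex were abundant. The tissue is a bulk sample, in which fewer cells of a type and less RNA per cell cannot be told apart.

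Of 16214 genes measured on both arrays, 815 (5.03%) were at least 2-fold higher with olanzapine than with quetiapine, and 556 (3.43%) at least 2-fold lower. The median difference was 0.03 and its standard deviation over genes 0.60. Among the 6 possible pairs of the 4 arrays this pair had the widest differences, with a standard deviation of 0.60 over the 16139 genes measured on all arrays. The pairs of olanzapine with chlorpromazine and with thioridazine followed, at 0.57 and 0.51. Pairs without olanzapine ranged from 0.42 to 0.48. The olanzapine array itself was wide: of all genes, 4.41% stood 2-fold or more over vehicle and 2.9% stood 2-fold or more under it, against 1.44% and 2.29% with quetiapine. In most genes past 2-fold, olanzapine was the outermost of the 4 arrays. It was the highest of 4 in 688 of the 795 such genes that were higher with olanzapine and measured on all arrays, and quetiapine was the lowest in 495. Among the 542 that were lower with olanzapine, it was the lowest of 4 in 470, and quetiapine the highest in 363. These counts are partly fixed by choosing genes for their difference.

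The arrays hold 1 measure of error. For 48 transcripts spotted 10 or 11 times, the standard deviation of the difference between spots had a median of 0.20 and ranged from 0.05 to 0.97. For the ratios of single arrays, these transcripts had a median standard deviation of 0.16 with olanzapine and 0.10 with quetiapine. Their mean differences ran from -0.57 to 1.27, and 1 of the 48, the pore-forming protein gene Gsdmd, exceeded 2-fold at 1.27 ± 0.97 (SD, n = 10 spots). That is a technical spread within an array and says nothing of the spread between mice. Of 1134 genes with several features, 49 (4.32%) were past 2-fold, and 5 of them were so on every feature; among the 15080 genes with 1 feature 8.77% were past 2-fold. Genes of odorant, vomeronasal, trace amine and taste receptors, which are scarcely transcribed in cortex, were past 2-fold about as often as others. Of 847 such genes 3.78% were higher and 4.13% lower with olanzapine, against 5.1% and 3.39% of the 15367 other genes. Most genes named below have 1 feature, and for none of them is the spread between mice known. Gsdmd was named after its values were seen.

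The regulatory sequences shown first belong to immediate early genes, which lay apart between the drugs, and to the metallothioneins Mt1 and Mt2. Both metallothioneins lay above vehicle on all 4 arrays, and further above with olanzapine and quetiapine than with the phenothiazines. The windows are the 250 bases before the annotated start, 5′ to 3′, from RefSeq, build GRCm38.p6. For the nuclear receptor Nr4a1 (chr15:101266596-101266845, plus strand), the neuronal transcription factor Npas4 (chr19:4989972-4990221, minus strand) and the AP-1 subunit Junb (chr8:84978749-84978998, minus strand), capitals mark the half-site TGACG of the cAMP response element, on either strand.
Nr4a1: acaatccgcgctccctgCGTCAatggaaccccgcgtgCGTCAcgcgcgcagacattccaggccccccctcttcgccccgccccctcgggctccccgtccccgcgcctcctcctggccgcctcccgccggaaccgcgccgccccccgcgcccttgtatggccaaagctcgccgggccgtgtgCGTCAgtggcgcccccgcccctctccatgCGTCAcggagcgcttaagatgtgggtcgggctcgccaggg
Npas4: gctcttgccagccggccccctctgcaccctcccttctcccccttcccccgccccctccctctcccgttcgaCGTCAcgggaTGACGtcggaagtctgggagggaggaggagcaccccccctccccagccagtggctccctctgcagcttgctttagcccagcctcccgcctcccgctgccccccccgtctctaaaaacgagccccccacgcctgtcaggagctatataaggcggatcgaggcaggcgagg
Junb: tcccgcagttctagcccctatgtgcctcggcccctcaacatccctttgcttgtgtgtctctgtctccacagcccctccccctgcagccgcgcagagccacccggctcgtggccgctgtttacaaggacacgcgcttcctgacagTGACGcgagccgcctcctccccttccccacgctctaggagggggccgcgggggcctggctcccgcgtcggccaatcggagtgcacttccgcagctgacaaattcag
These 3 were shown because they hold the half-site, with 4 before Nr4a1, 2 before Npas4 and 1 before Junb. None was found in this window before Egr2, Gadd45b, Bdnf, Fosl2, Ptgs2 or Ier5, which were also at least 2-fold higher with olanzapine. Of 26 immediate early genes with a RefSeq promoter, 16 (61.5%) held a half-site in this window, against 17.9% of 27025 promoters. Among the 12 of them that were at least 2-fold higher with olanzapine, 6 (50%) held one. For the metallothioneins Mt2 (chr8:94172368-94172617, plus strand) and Mt1 (chr8:94178839-94179088, plus strand), capitals mark the core of the metal response element, TGCACNC or TGCGCNC, on either strand.
Mt2: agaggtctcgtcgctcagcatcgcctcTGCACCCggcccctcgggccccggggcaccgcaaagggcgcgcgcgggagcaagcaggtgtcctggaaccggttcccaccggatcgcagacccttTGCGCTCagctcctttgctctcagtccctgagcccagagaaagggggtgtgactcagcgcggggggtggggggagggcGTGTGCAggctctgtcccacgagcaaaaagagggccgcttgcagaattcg
Mt1: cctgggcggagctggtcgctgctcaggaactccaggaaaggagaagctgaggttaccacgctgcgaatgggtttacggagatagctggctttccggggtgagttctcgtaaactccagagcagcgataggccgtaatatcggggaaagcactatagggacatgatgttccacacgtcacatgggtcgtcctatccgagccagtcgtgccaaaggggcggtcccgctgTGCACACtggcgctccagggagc
Within these windows Mt2 had 3 cores and Mt1 had 1, and bases outside the windows were not searched. At least 1 core stood in 8 of 21 promoters (38.1%) of the metallothionein, zinc and antioxidant list, in 11 of 26 (42.3%) of the immediate early genes and in 21.3% of all promoters. A match is a description of these letters and not a bound site.

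Immediate early genes, which neurons transcribe within minutes of activity, had the largest median difference of the 31 gene lists. Their median log2 ratio to vehicle was 0.28 with olanzapine and -0.29 with quetiapine, and the median of the gene differences was 0.81, against 0.03 over all genes. Of 32 members 14 (43.8%) were at least 2-fold higher with olanzapine, where all genes gave 5.03%, and 1 (3.12%) was at least 2-fold lower, where all genes gave 3.43%. The difference was above 0 in 29 of 32, against 8869 of all 16214 genes. Part of it lay on each side of vehicle: 23 of 32 members were above vehicle with olanzapine, and 20 of 32 were below it with quetiapine. The median of these genes was -0.14 with thioridazine, between the medians of both azepine drugs, and chlorpromazine also lay between them.

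The members furthest apart in the direction of the list, Egr2 and Arc, were low with quetiapine rather than high with olanzapine. Of the members named here all but Egr2, Arc, Bdnf, Dusp1, Dusp5, Ier3 and Ccn1 were chosen after their values were seen. The zinc finger factor Egr2 had a ratio of -0.23 with olanzapine and -2.40 with quetiapine. Arc, whose product acts at synapses in the removal of glutamate receptors, was at -0.44 with olanzapine and -2.56 with quetiapine. Both genes lay below vehicle with chlorpromazine and thioridazine too, Egr2 at -1.10 and -0.73 and Arc at -0.78 and -0.96. Egr1 was at -0.23 with olanzapine and -1.98 with quetiapine, and Ier5 at -0.33 and -1.39. With quetiapine 5 members (Arc, Egr2, Egr1, Ier5 and the kinase phosphatase Dusp6) were at least 2-fold below vehicle, where all genes gave 2.29%, and none was 2-fold above. With olanzapine 3 members were at least 2-fold above vehicle, where all genes gave 4.41%. These were the growth-arrest gene Gadd45b at 1.42 with olanzapine and -0.34 with quetiapine, the prostaglandin synthase Ptgs2 at 1.25 and 0.18, and Npas4 at 1.19 and -0.09.

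Other members lay on opposite sides of vehicle by smaller amounts. Nr4a1 was at 0.73 with olanzapine and -0.85 with quetiapine, Junb at 0.98 and -0.30, and the neurotrophin Bdnf at 0.38 and -0.97. The remaining members at least 2-fold apart were Egr4, Fosl2, Klf4 and Fos. Fos, the AP-1 subunit most used as an activity marker, averaged 0.82 with olanzapine and -0.28 with quetiapine, but its 2 features disagreed. One feature gave 2.25 with olanzapine and -1.06 with quetiapine, and the other -0.60 and 0.50. Against the direction of the list, the kinase phosphatase Dusp5 was at -1.37 with olanzapine and 0.78 with quetiapine, and Ier3 at -0.86 and 0.03. A further 12 members, from Jun at 0.42 to Atf3 at -0.13, differed by less than 0.5, among them Fosb, Egr3, Homer1, Nr4a2 and Nr4a3. Ccn1, a matricellular protein gene, was above vehicle with both drugs, at 0.44 with olanzapine and 0.35 with quetiapine.

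**Figure D1:**
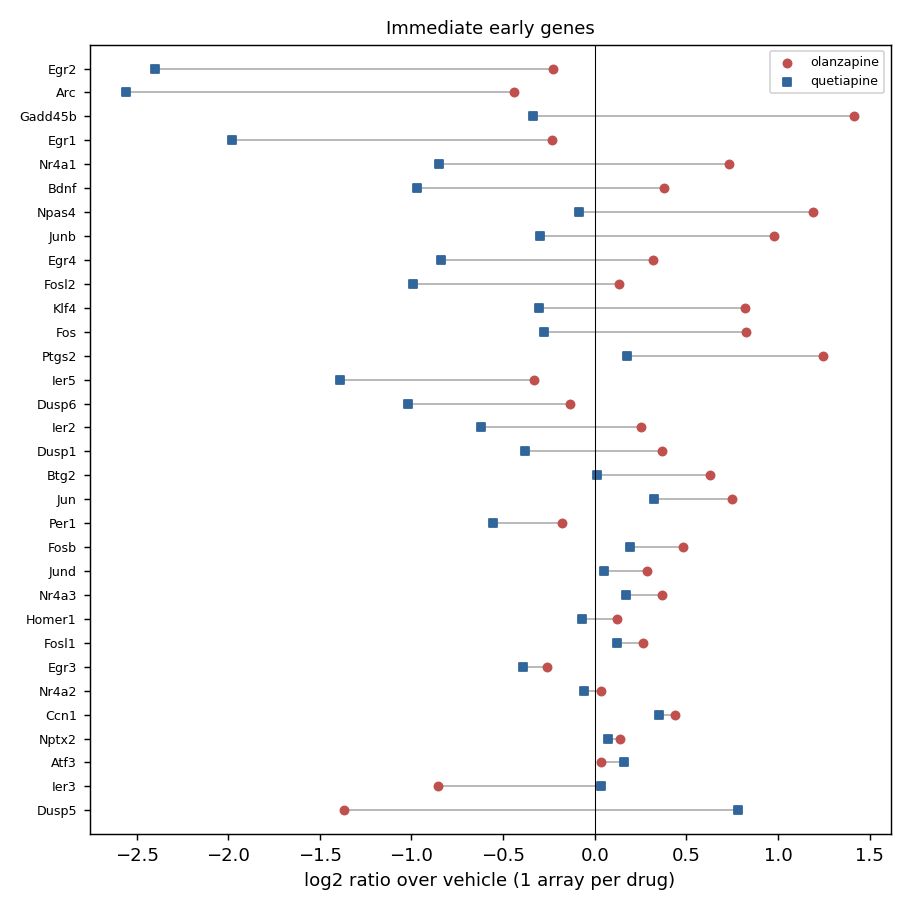
Log2 ratio over vehicle of the 32 immediate early genes, with olanzapine (red circles) and quetiapine (blue squares), 1 array each; a line joins both values of a gene, and genes are ordered by difference. The olanzapine point lies to the right of the quetiapine point in 29 genes, and Dusp5 and Ier3 are the widest exceptions.

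Neutrophil granule genes lay the other way, higher with quetiapine. Their median was 0.15 with olanzapine and 0.96 with quetiapine, and the median difference was -0.56. Of 23 members 8 (34.8%) were at least 2-fold lower with olanzapine, where all genes gave 3.43%, and none was 2-fold higher, where all genes gave 5.03%. The calprotectin subunits, calcium-binding proteins abundant in neutrophils, stood furthest out. S100a9 was at 0.83 with olanzapine and 5.81 with quetiapine. S100a8 was at 0.25 with olanzapine and 5.02 with quetiapine. The iron-binding lipocalin Lcn2 was at -0.21 with olanzapine and 2.44 with quetiapine. With thioridazine these genes were also above vehicle, S100a9 at 2.48, S100a8 at 1.77 and Lcn2 at 1.41, whereas chlorpromazine gave 0.29, 0.03 and -0.03.

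Other granule genes were mixed. Ngp, a granule protein of the cathelicidin-like family, was at 3.26 with olanzapine and 3.27 with quetiapine, with -0.18 on the chlorpromazine and 0.33 on the thioridazine array. Stfa2, a stefin protease inhibitor, was at 1.35 with olanzapine and 1.27 with quetiapine. Camp, the cathelicidin peptide gene, was above vehicle with both, at 1.16 with olanzapine and 2.90 with quetiapine. The elastase Elane, the cathepsin Ctsg and the protease Prtn3, of primary granules, differed by at most 0.21 between the drugs, and Mpo, of the same granules, was at -1.12 with olanzapine and 0.65 with quetiapine. The remaining members at least 2-fold lower with olanzapine were Wfdc21 (0.08 with olanzapine and 1.87 with quetiapine), the formyl peptide receptor Fpr2 (-0.02 and 1.52) and the chitinase-like Chil3 (-0.10 and 0.99). These 3 genes, Camp, Elane, Ctsg and Mpo were named after their values were seen. The list's highest difference was that of the gelatinase Mmp9, at 0.47 with olanzapine and -0.07 with quetiapine. Cstdc6, a stefin family gene outside the list, had 2 features that both differed, with a mean of 0.01 with olanzapine and 2.04 with quetiapine; the differences of its features were -2.32 and -1.75.

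Red cell genes, markers of blood in the tissue, also differed between these arrays. The adult globins Hba-a1 and Hbb-b2 were at -1.87 and -1.74 with olanzapine, against 0.18 and 0.40 with quetiapine. Alas2, the haem synthesis enzyme of red cells, was at -0.86 with olanzapine and 0.34 with quetiapine, and the membrane protein gene Epb42 at -1.14 and 0.54, both named after their values were seen. Over the 18 red cell genes measured of 27 listed the median was -0.11 with olanzapine and 0.12 with quetiapine, and 4 (22.2%, against 3.43% of all genes) were at least 2-fold lower with olanzapine and none was 2-fold higher. With thioridazine these globins were at 0.91 and 1.16, and with chlorpromazine at -0.25 and -0.29. The part of blood in the neutrophil gene differences was not tested. Olanzapine minus quetiapine was -2.05 for Hba-a1 and -2.13 for Hbb-b2, and it was -4.77 for S100a8 and -4.98 for S100a9.

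Acute-phase and cytokine-response genes had medians above vehicle with both drugs. The median was 0.43 with olanzapine and 0.79 with quetiapine, 25 and 29 of 33 members being above vehicle, and the median difference was -0.16. With thioridazine the list median was 0.57, above that with olanzapine, and with chlorpromazine it was 0.06. At least 2-fold lower with olanzapine were 9 members (27.3%, against 3.43% of all genes), and 3 (9.09%, against 5.03%) were at least 2-fold higher. The serum amyloid gene Saa3 was at 1.25 with olanzapine and 4.12 with quetiapine. Haptoglobin (Hp), named after its values were seen, was at 0.9999 with olanzapine and 3.49 with quetiapine. The cytokine Il1b was at -1.43 with olanzapine and 0.88 with quetiapine, and Serpina3n, a protease inhibitor of reactive astrocytes, at 0.40 and 2.01; both were likewise chosen after their values were seen.

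The orosomucoids ran the other way. Orm2 was at 3.15 with olanzapine and 0.93 with quetiapine, and Orm1, named after its values were seen, at 1.97 and 0.83. The metalloreductase Steap4 was at 0.29 with olanzapine and -1.96 with quetiapine. Bcl3, a nuclear partner of NF-kappaB, was well above vehicle with both, at 2.14 with olanzapine and 1.52 with quetiapine. Named after their values were seen, Cebpb (0.88 and 1.02), C4b (0.73 and 0.63), Osmr (0.72 and 0.87) and Socs3 (0.58 and 0.93) had similar ratios on both arrays, olanzapine first.

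**Figure D2:**
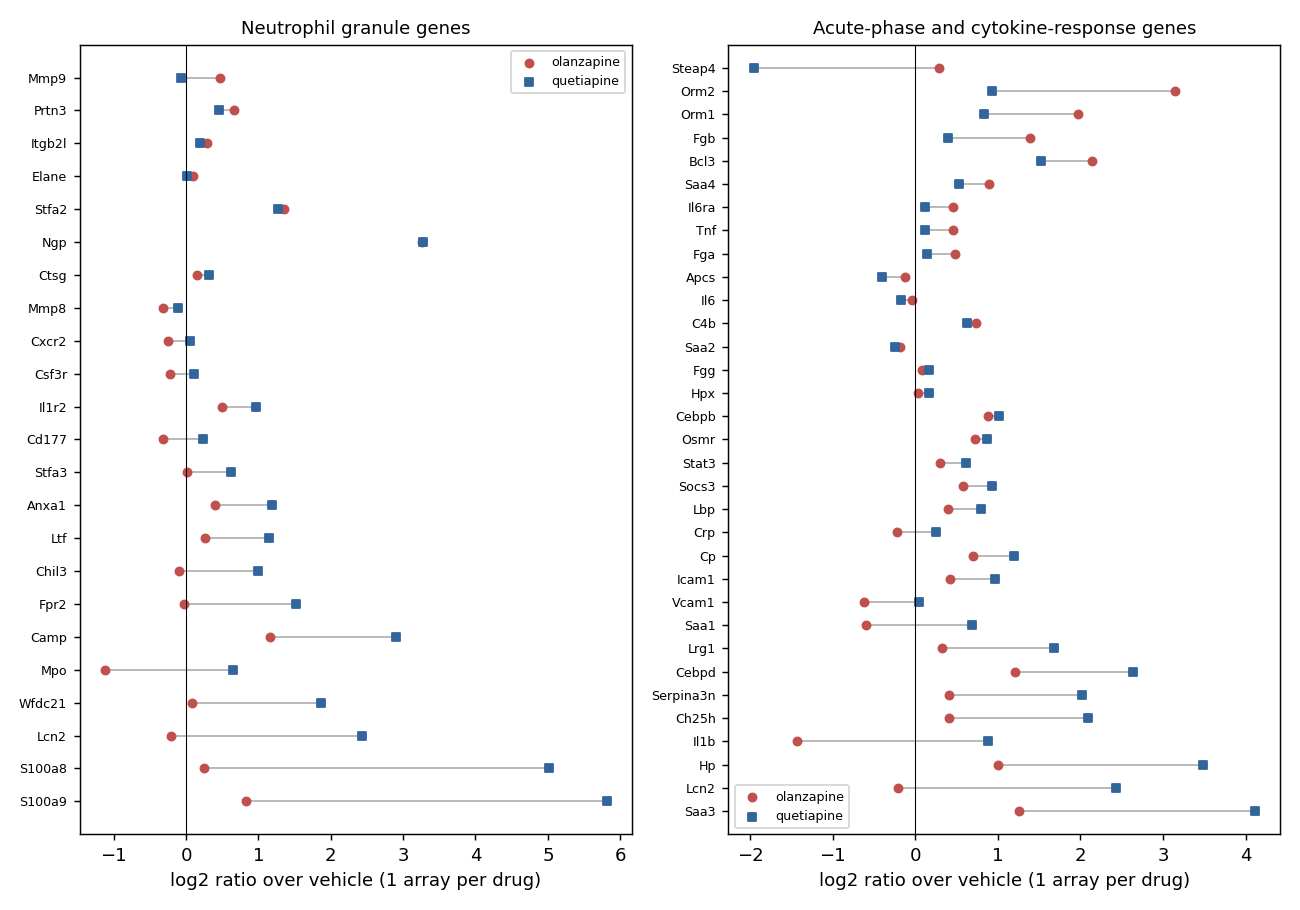
Log2 ratio over vehicle of 23 neutrophil granule genes (left) and 33 acute-phase and cytokine-response genes (right), with olanzapine (red circles) and quetiapine (blue squares), 1 array each. S100a9, S100a8, Lcn2 and Saa3 lie further right with quetiapine, Ngp and Bcl3 are right of 0 with both drugs, and Orm2 is further right with olanzapine.

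Glucocorticoid-responsive genes were above vehicle with both drugs and further above with quetiapine. The median was 0.37 with olanzapine and 0.83 with quetiapine, with 20 and 22 of 25 members above vehicle, and it was 0.11 with chlorpromazine and 0.08 with thioridazine. At least 2-fold above vehicle were 4 of 25 with olanzapine, where all genes gave 4.41%, and 11 of 25 with quetiapine, where all genes gave 1.44%. In the difference 6 of 25 (24%, against 3.43% of all genes) were at least 2-fold lower with olanzapine and 1 (4%, against 5.03%) was higher. The metallothionein Mt2 was at 2.08 with olanzapine and 2.04 with quetiapine, and Mt1 at 1.12 and 1.66. With chlorpromazine and thioridazine Mt2 was at 0.38 and 0.64, and Mt1 at 0.50 and 0.45. The genes Mt1 and Mt2 lie next to each other on chromosome 8, and their products bind zinc. Mt3, the brain metallothionein, was at -0.98 with olanzapine and 0.42 with quetiapine. The transcription factor Cebpd was at 1.20 with olanzapine and 2.63 with quetiapine.

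The sulphotransferase Sult1a1 was at 0.08 with olanzapine and 2.31 with quetiapine. Named after their values were seen, the leucine zipper gene Tsc22d3 was at -0.41 with olanzapine and 0.87 with quetiapine, and the kinase Pdk4, which restrains glucose oxidation, at -0.68 and 0.83. Fkbp5, a cochaperone of the glucocorticoid receptor also chosen in this way, was at 0.20 with olanzapine and 0.54 with quetiapine. The difference was above 0 in 9 of 25 and below 0 in 16, against 8869 and 7325 of all 16214 genes. The member at least 2-fold higher was Gpd1, glycerol phosphate dehydrogenase, at 2.05 with olanzapine and 0.43 with quetiapine, and the phosphatase Dusp1, also an immediate early gene, was at 0.37 and -0.38. Lcn2 and Cebpd also stand in the inflammatory lists above. With the members shared between lists left out, the median difference was -0.41.

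Most genes of both chaperone lists lay below vehicle with each drug. Genes of the unfolded protein response had a median of -0.30 with olanzapine and -0.57 with quetiapine, with 17 and 19 of 23 members below vehicle. The difference was above 0 in 19 of 23, against 8869 of all 16214 genes, with a median of 0.25. At least 2-fold higher with olanzapine was 1 member (4.35%, against 5.03% of all genes), and none was 2-fold lower, where all genes gave 3.43%. The protein disulphide isomerase Pdia4 was at -0.79 with olanzapine and -0.91 with quetiapine. Hspa5, the main chaperone of the endoplasmic reticulum, was at -0.65 with olanzapine and -1.52 with quetiapine. The member past 2-fold was Hyou1, at 0.94 with olanzapine and -0.43 with quetiapine. Atf6, a sensor of the response, was at 0.16 and 0.44.

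Heat shock proteins and co-chaperones had a median of -0.17 with olanzapine and -0.38 with quetiapine, with 18 and 25 of 28 members below vehicle. Dnajb1, a co-chaperone, was at -0.93 with olanzapine and -0.90 with quetiapine. Hsf2, a heat shock transcription factor, was at -0.71 with olanzapine and -1.38 with quetiapine, and the inducible chaperone Hspa1a at -0.67 and -1.67. Cryab, a small heat shock protein, was at 0.34 with olanzapine and -0.62 with quetiapine. On the other side, Hspa2 was at -0.997 with olanzapine and 0.29 with quetiapine, and Dnajb6 at -0.96 and -0.02. The thioridazine medians were -0.38 for the unfolded protein response and -0.31 for the heat shock list, and the chlorpromazine medians -0.12 for both.

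**Figure D3:**
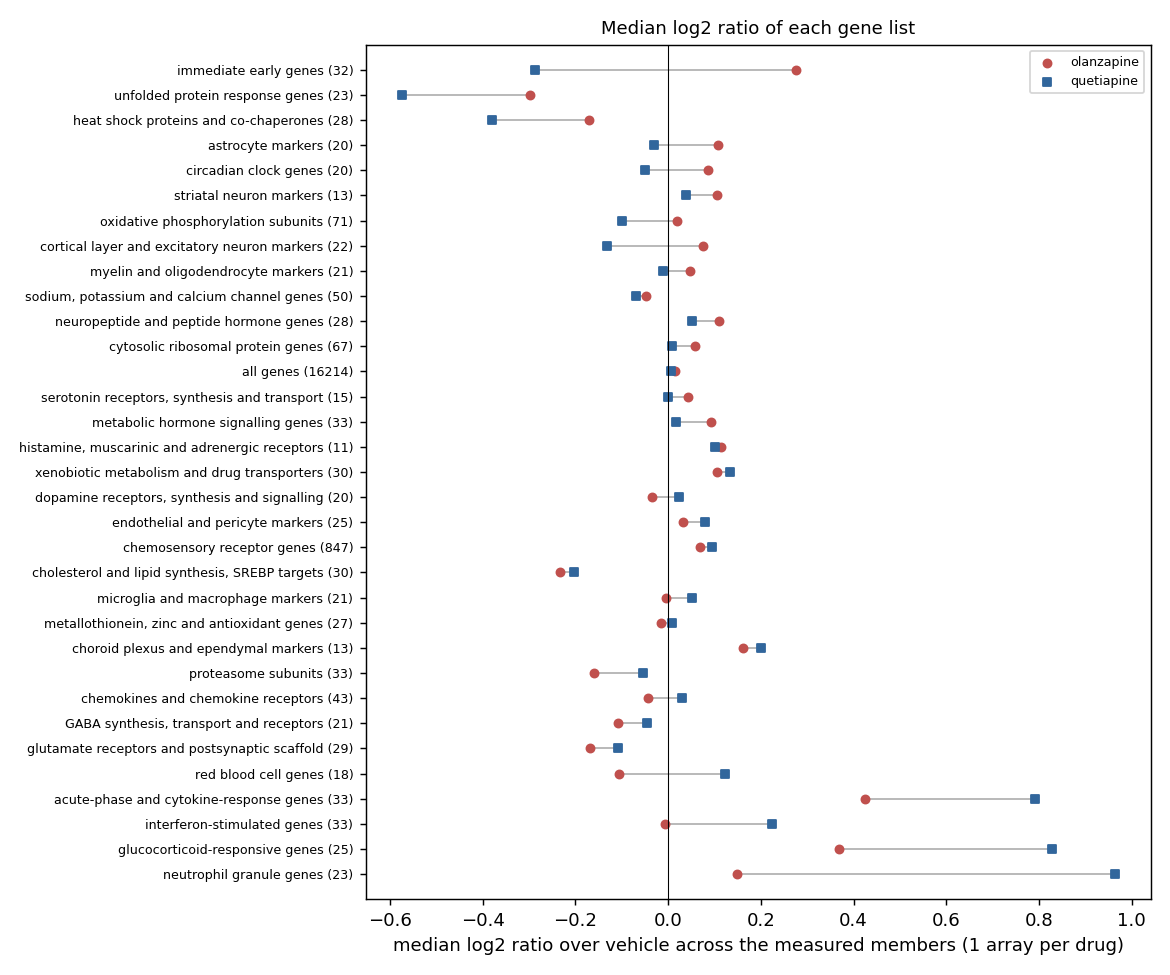
Median log2 ratio over vehicle of 31 gene lists, of all 16214 genes and of 847 chemosensory receptor genes, with olanzapine (red circles) and quetiapine (blue squares), 1 array each; the number of measured genes is in brackets and rows are ordered by median difference. Immediate early genes are on opposite sides of 0, both chaperone lists are left of 0, and neutrophil granule, glucocorticoid-responsive and acute-phase genes are further right with quetiapine.

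Genes of the receptor families that the drugs bind were past 2-fold about as often as all genes. Of 28 genes of dopamine, serotonin, histamine, muscarinic and adrenergic receptors, 25 were less than 2-fold apart, 2 were at least 2-fold higher with olanzapine and 1 lower, or 10.7% past 2-fold against 8.46% of all genes. The median ratio was 0.11 with olanzapine and 0.10 with quetiapine. Drd2, the dopamine receptor that antipsychotic drugs block, was at 0.31 with olanzapine and 0.17 with quetiapine. Drd1, with 2 features, was at 0.11 and 0.09, Drd3 at 0.23 and -0.05, and Drd4 at 0.83 and 0.27. With an interval for none of them, these values do not show that the drugs act alike on any receptor gene.

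In the dopamine list as a whole (20 measured genes) the median was -0.04 with olanzapine and 0.02 with quetiapine. The transporter Slc6a3, which takes dopamine back into its neurons, was the member past 2-fold, at -1.01 with olanzapine and 1.17 with quetiapine. Its transcript is made mainly in the midbrain and not in cortex. Ddc, which makes dopamine and serotonin from their precursors, was below vehicle with both drugs, at -0.997 with olanzapine and -0.95 with quetiapine. Pts, an enzyme of tetrahydrobiopterin synthesis, was at -0.55 and 0.17, and Gsk3b, a kinase downstream of Akt, at 0.08 and -0.24.

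Among serotonin genes (15 measured, medians 0.04 with olanzapine and 0.00 with quetiapine) Htr4 was furthest apart, at 0.91 with olanzapine and -0.83 with quetiapine. Htr2a, a main target of both drugs, was at 0.41 with olanzapine and -0.01 with quetiapine, while Htr2c was at 0.23 with both. The ion channel subunit Htr3a was at 0.57 and -0.18, and Htr3b at 0.46 and 0.17. Quetiapine was the higher for Htr7, at -0.25 with olanzapine and 0.45 with quetiapine, and for Htr5b, at -0.07 and 0.59. Htr2b was below vehicle with both, at -0.69 and -0.95, as was Htr1f, at -0.66 and -0.30. Htr1a, Htr1d, Htr5a and Htr6 differed by at most 0.20.

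For the remaining amine receptors (11 measured, medians 0.11 with olanzapine and 0.10 with quetiapine) the muscarinic receptor Chrm3 was at 1.10 with olanzapine and -0.24 with quetiapine. Chrm5 was at -0.28 and 0.19, and Chrm1, Chrm2 and Chrm4 differed by at most 0.14. The adrenergic receptor Adra1b was at -0.07 with olanzapine and 0.97 with quetiapine, and Adra2c was at 0.11 with both. The histamine receptor Hrh1, a target linked to sedation, was at 0.60 with olanzapine and 0.10 with quetiapine. Hrh4 was at 0.34 and 0.02, Hrh2 at -0.18 and 0.10, and Hrh3 at 0.32 and 0.34.

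**Figure D4:**
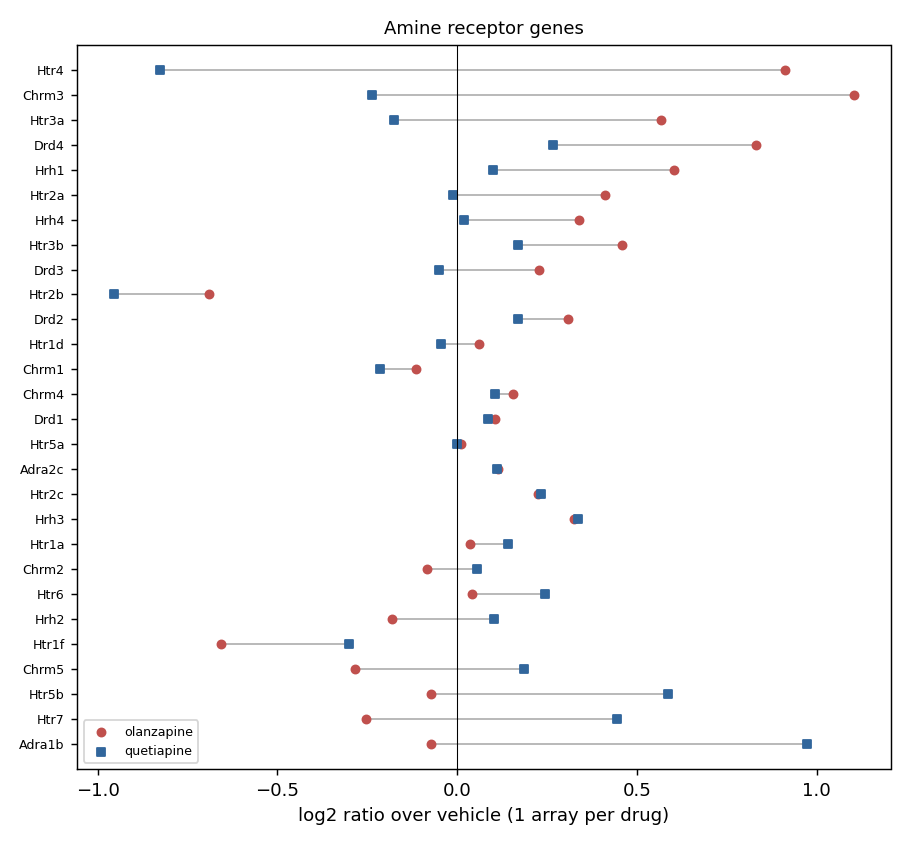
Log2 ratio over vehicle of the 28 measured dopamine, serotonin, histamine, muscarinic and adrenergic receptor genes, with olanzapine (red circles) and quetiapine (blue squares), 1 array each, ordered by difference. Htr4 and Chrm3 are at least 2-fold higher with olanzapine, Adra1b at least 2-fold lower, and the points of Drd1, Htr2c, Hrh3 and Adra2c nearly coincide.

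The single genes furthest apart were mixed in function. Sdhd, a membrane subunit of succinate dehydrogenase, was at -4.05 with olanzapine and 4.62 with quetiapine, and at 4.72 with chlorpromazine and 2.70 with thioridazine. It was the 1 gene of 71 measured oxidative phosphorylation subunits that was at least 2-fold apart. Rad51ap1, a recombination protein, was at -3.17 with olanzapine and 1.11 with quetiapine. The chloride exchanger Slc26a3 was at -3.36 and 0.05, and the nicotinic receptor subunit Chrnb4 at -2.72 and 0.17. Tfeb, the transcription factor of lysosome genes, was at 0.24 with olanzapine and 3.15 with quetiapine, and at -3.22 with chlorpromazine. The rest of the 12 lowest were Nlrp5-ps (-2.40 with olanzapine and 0.78 with quetiapine), B3gnt8 (0.39 and 3.31), Olfr613 (-3.29 and -0.47) and Daw1 (-2.44 and 0.36), with S100a9, S100a8 and Saa3 given above.

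At the other end, the ubiquitin ligase Trim65 was at 1.41 with olanzapine and -3.69 with quetiapine. Sh3rf2 was at 3.24 and -1.03, and the efflux transporter Abcc1 at 4.35 and 0.38. Gja1, the main gap junction protein of astrocytes, was at 3.59 with olanzapine and -0.18 with quetiapine. Cyp1a2, the cytochrome that metabolises olanzapine in liver, was at 1.49 with olanzapine and -2.11 with quetiapine. Maff, a small Maf transcription factor, was at 1.35 and -2.10. The remaining genes of the 12 highest were Cxxc4 (2.73 with olanzapine and -0.88 with quetiapine), Pdcd6ip (2.52 and -1.08), Ces3a (2.18 and -1.41), Spink10 (2.64 and -0.88), Fabp6 (3.00 and -0.52) and Klrc2 (2.97 and -0.44). Every gene in these 2 sets of 12 had 1 feature.

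**Figure D5:**
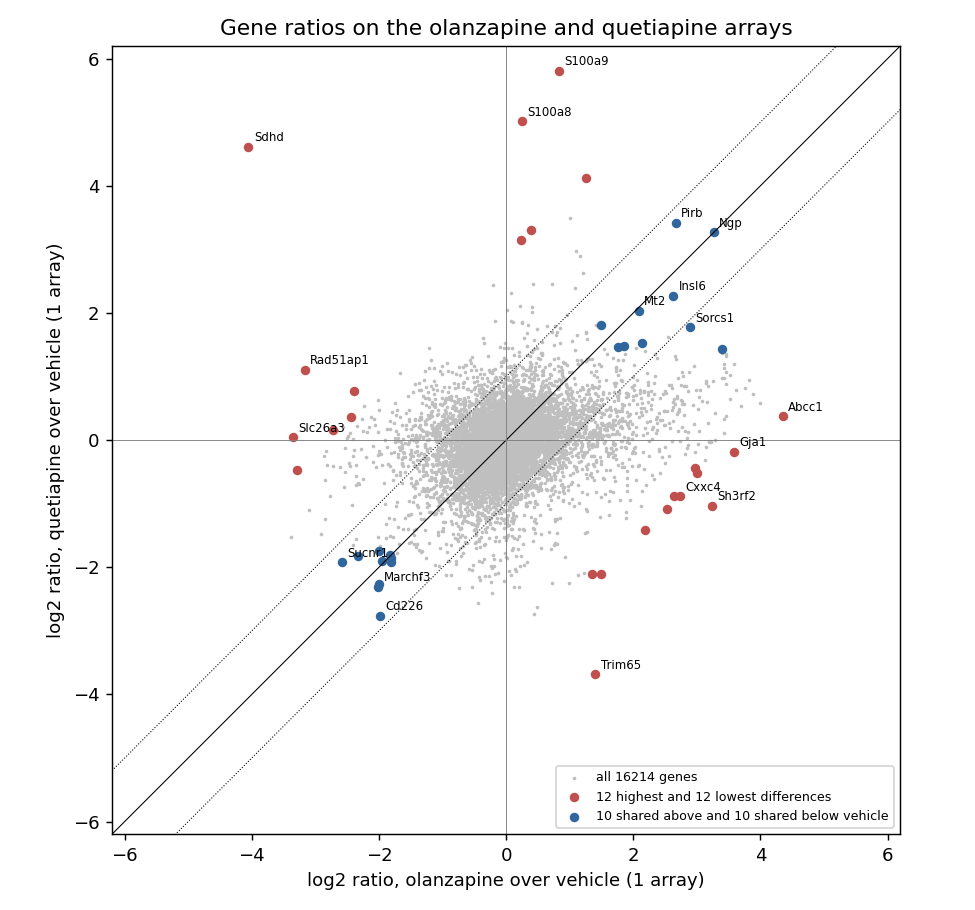
Log2 ratio over vehicle with olanzapine (horizontal) and quetiapine (vertical), 1 array each, for 16214 genes (grey), the 12 highest and 12 lowest differences (red) and the genes furthest from vehicle in 1 direction on both arrays (blue). The solid line marks equal ratios and the dotted lines a 2-fold difference; the cloud is wider along the olanzapine axis, and Sdhd lies alone at the upper left.

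Of the 49 genes with several features that were past 2-fold, 37 had all features on the same side, and 5 were past 2-fold on every feature. These 5 were selected for that agreement, so it is no check of them. Higher with olanzapine were Ankrd26, at a mean of -0.11 with olanzapine and -1.59 with quetiapine with feature differences of 1.30 and 1.68, and Lpgat1, an acyltransferase, at 0.43 and -0.71 with 1.04 and 1.24. Lower with olanzapine were Cstdc6, the cytochrome Cyp2j13, at -1.28 and 0.26 with -1.87 and -1.21, and Cpne4, a calcium-dependent membrane-binding protein of the copine family, at -0.67 and 0.50 with -1.346 and -1.002.

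Several genes stood far from vehicle in 1 direction on both arrays. Above vehicle, Pirb, an inhibitory receptor of myeloid cells and neurons, was at 2.67 with olanzapine and 3.42 with quetiapine. The insulin family gene Insl6 was at 2.63 and 2.27, and Sorcs1, a sorting receptor, at 2.89 and 1.78. Irf7, a regulator of interferon genes, was at 3.39 and 1.44. Ugt1a6b (1.49 and 1.81), Ttc12 (1.85 and 1.47) and Nxn (1.76 and 1.46) completed the 10 with Ngp, Mt2 and Bcl3. On the phenothiazine arrays Pirb was at 1.39 with chlorpromazine and 3.27 with thioridazine, and Insl6 at 1.42 and 1.79.

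Below vehicle, the choline dehydrogenase Chdh was at -1.996 with olanzapine and -2.27 with quetiapine. The ubiquitin ligase Marchf3 was at -2.01 and -2.31, the lymphocyte receptor Cd226 at -1.98 and -2.76, and the succinate receptor Sucnr1 at -2.58 and -1.92. Vmn1r220, Arhgap32, Alx1, Figla, Dhrs9 and Cwc22 had ratios between -2.33 and -1.80 with olanzapine and between -1.92 and -1.74 with quetiapine. With thioridazine 10 of these 10 genes were below vehicle as well, and with chlorpromazine 9, the exception being Cwc22 at 0.19. For ratios shared in this way, the drugs cannot be told apart from a vehicle RNA or a dye bias common to the arrays.

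Markers of cell types gave mostly small list medians. Astrocyte markers (20 measured) had 0.11 with olanzapine and -0.03 with quetiapine, and 2 of them (10%, against 5.03% of all genes), Gja1 and the growth factor receptor Fgfr3 (3.45 with olanzapine and 0.37 with quetiapine), were at least 2-fold higher with olanzapine. The filament gene Vim was above vehicle with both, at 1.72 and 1.13, and the water channel Aqp4 below, at -1.20 and -0.89, while Aldoc (-0.21 and 0.29) and Slc1a3 (-0.47 and -0.11) were the lowest in the difference. Microglia and macrophage markers (21 measured) had medians of 0.05 with quetiapine and just below 0 with olanzapine. Siglech was at -0.34 with olanzapine and -2.14 with quetiapine, and Mrc1 at 0.35 and -0.46, whereas the protease Ctss was at -0.21 and 1.10 and the complement gene C1qa at 0.08 and 1.15. Fcer1g (0.94 and 0.96) and the scavenger receptor Cd163 (0.54 and 1.37) were above vehicle with both.

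Endothelial and pericyte markers (25 measured) had medians of 0.03 with olanzapine and 0.08 with quetiapine. The receptor Tek was at 0.12 with olanzapine and -2.31 with quetiapine; Abcb1a, the efflux pump of the blood-brain barrier, was at -1.19 and 0.40, Pecam1 at -0.75 and 0.61, and the glucose transporter Slc2a1 at 0.48 and 1.75. Vwf averaged 1.29 and 0.60, but its 2 features differed in sign of the difference, at -0.80 and 2.18. Myelin and oligodendrocyte markers (21 measured) had 0.05 with olanzapine and -0.01 with quetiapine, with Olig2 at 2.56 and 0.27 and Mal at -0.21 and -1.81. Choroid plexus and ependymal markers (13 measured) had 0.16 and 0.20; Aqp1 was at -0.22 and 1.05, and Ttr, the transport protein that choroid plexus makes in large amounts, at 0.26 and -0.33. Cortical layer and excitatory neuron markers (22 measured) had 0.08 with olanzapine and -0.13 with quetiapine, with Foxp2 at 0.75 and -0.55, Rorb at 0.32 and -0.73 and Crym at -0.36 and 0.79. Striatal neuron markers (13 measured) had 0.11 and 0.04, and none was 2-fold apart.

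Several drug-handling genes were higher with olanzapine than with quetiapine. Of 30 measured genes of xenobiotic metabolism and transport, 5 (16.7%, against 5.03% of all genes) were at least 2-fold higher with olanzapine and 2 (6.67%, against 3.43%) lower, while the list medians were 0.10 with olanzapine and 0.13 with quetiapine. Besides Abcc1 and Cyp1a2 these were Cyp3a13 (3.69 with olanzapine and 0.54 with quetiapine), Fmo5 (2.26 and 0.30) and Cyp3a25 (1.33 and 0.08), the last 2 named after their values were seen. With chlorpromazine and thioridazine Abcc1 was at 0.32 and 0.93, Cyp1a2 at 0.47 and 1.04, and Cyp3a13 at 0.16 and 1.02. The lower genes were Sult1a1 and Abcb1a. Cyp1b1 was above vehicle with both, at 1.27 and 1.59.

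Genes of metabolic hormone signalling (33 measured) had medians of 0.09 with olanzapine and 0.02 with quetiapine. Ghsr, the ghrelin receptor, was at 0.80 with olanzapine and -1.63 with quetiapine, and the insulin receptor substrate Irs3 at 1.99 and -0.20. The adiponectin receptor Adipor2 was at -1.33 and 0.78, and the insulin receptor Insr at -0.28 and 0.56. Slc2a4, the insulin-regulated glucose transporter, was at 0.63 and 0.95, and Ppara at -0.47 with both. Neuropeptide and peptide hormone genes (28 measured) had 0.11 and 0.05, with the neuromedin receptor Nmbr at 1.35 and 0.09 and its ligand Nmb at -0.59 and 0.62.

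Cholesterol and lipid synthesis genes (30 measured) lay below vehicle to a similar degree, with a median of -0.23 with olanzapine and -0.20 with quetiapine and 21 and 20 members below vehicle. The list median was below vehicle on the phenothiazine arrays too, at -0.11 with chlorpromazine and -0.18 with thioridazine. The sterol demethylase Cyp51 was at -0.77 with olanzapine and -0.63 with quetiapine. Lanosterol synthase (Lss) stood above vehicle with both, at 1.41 and 1.09. Nsdhl, a later enzyme, was at -1.02 and 0.01 and was the member past 2-fold, the carrier Stard4 was at -0.40 and 0.57, and Mvd, of the mevalonate branch, at 0.00 and -0.69. Circadian clock genes (20 measured) had 0.09 with olanzapine and -0.05 with quetiapine. Cry2, a repressor of the clock, was at 1.39 and 0.28, Arntl, the partner of Clock, at -0.88 and -1.04, and Hlf at -0.43 and 0.38.

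Interferon-stimulated genes (33 measured) had a median just below 0 with olanzapine and 0.22 with quetiapine. Of these, 24 had a lower ratio with olanzapine, against 7325 of all 16214 genes. At least 2-fold higher with olanzapine were 3 (9.09%, against 5.03% of all genes), and 2 (6.06%, against 3.43%) were at least 2-fold lower. The RNA sensor Ddx58 was at 1.89 with olanzapine and -1.13 with quetiapine, while Oasl1 was at -1.27 and 0.30 and Isg20 at -0.05 and 1.25. The chemokine Cxcl10 was above vehicle with both, at 0.81 and 1.69. Chemokines and their receptors (43 measured) had -0.04 with olanzapine and 0.03 with quetiapine, and 6 (14%, against 3.43% of all genes) were at least 2-fold lower with olanzapine. Among these Ccl4 was at -1.76 and 0.27 and the receptor Cxcr5 at -1.996 and -0.22, whereas Ccl17 was at 1.26 with olanzapine and 1.24 with quetiapine and Cxcr6 at -0.78 and -1.90.

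Past 2-fold in the difference were 1 of 21 GABA genes, 3 of 29 glutamate genes and 3 of 50 channel genes, against 8.46% of all genes. GABA genes (21 measured) had medians of -0.11 with olanzapine and -0.05 with quetiapine. Gabra6 was at -0.95 and 0.22 and the transporter Slc6a11 at -1.14 and -0.24, while the synthesis enzyme Gad2 was at 0.28 and -0.34 with both features in that direction. Glutamate receptor and scaffold genes (29 measured) had -0.17 and -0.11; Grik3 was at 3.02 with olanzapine and -0.06 with quetiapine and Grin3b at -1.08 and 0.41. Channel genes (50 measured) had -0.05 and -0.07, with the sodium channel Scn9a at 3.89 and 0.72, the potassium channel Kcna3 at 1.99 and -0.17, and Kcnj6 at -0.50 and 0.47.

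Housekeeping lists were close on both arrays. Cytosolic ribosomal protein genes (67 measured) had medians of 0.06 with olanzapine and 0.01 with quetiapine, and proteasome subunits (33 measured) -0.16 and -0.05; no member of either list was 2-fold apart. Oxidative phosphorylation subunits (71 measured) had 0.02 with olanzapine and -0.10 with quetiapine. The difference was above 0 in 54 of 71, against 8869 of all 16214 genes. Metallothionein, zinc and antioxidant genes (27 measured) had medians within 0.02 of 0 on both arrays, with Sod3 at -0.45 and -1.18, Mtf1, the zinc-sensing factor of metallothionein genes, at -0.10 and -0.81, and the cystine transporter Slc7a11 at -1.05 and 0.01.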

How the data were processed

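The deposited table holds 1 ratio per feature and array, read here as log10. Per the labels, the authors used Agilent Feature Extraction 7.1, and LOWESS on rank-consistent features corrected for dye; scale, direction and centring are not stated for the table. The median deposited value was 0.00376 on the olanzapine array and 0 on the quetiapine array. No intensities were used here, so no filter on dim spots was possible, and the number of arrays limits precision. The deposited values, read as log10, were multiplied into log2. Exact 0 (198 values with olanzapine, 594 with quetiapine) was taken as missing, and features of a gene were averaged (Python 3.11.15, pandas 2.3.3, numpy 2.4.6). Of 22393 features 18218 had 1 symbol, 16 several and 4159 none in the platform annotation; 18175 took the current RefSeq symbol (GRCm38.p6, names only). Counting was run on simulated data with planted changes far past the threshold, which checks the code and not the reliability of the counts.

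Members and the 31 gene lists were chosen with earlier results of these data known. Named were the 12 highest and 12 lowest differences, 10 shared genes each way, 8 opposite each way, 2 highest, 2 lowest and 2 shared per list, up to 6 each way with every feature past 2-fold, and all amine receptors; clone-style names were left out. Genes outside this rule are marked. The promoters shown were chosen for holding the motif among genes named in the text that RefSeq covers, taking the first start listed.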

Additional observations from a re-analysis of the deposited data

Results flagged for a closer look

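Genes at least 2-fold above vehicle on one array and at least 2-fold below on the other are values of 2 single arrays, and the difference was not tested. Only the 8 each way whose ratio nearer to 0 was largest in size are listed. Other genes met the threshold as well, among them Ddx58, Pdcd6ip, Sh3rf2 and, in the reverse direction, Slc6a3. Above vehicle with olanzapine and below with quetiapine were Cyp1a2 (difference 3.60), Ces3a (3.59), Trim65 (5.09), Maff (3.45), Slc10a2 (2.71), the growth factor Tgfb1 (2.70), Ice2 (3.32) and Zfp750 (3.11). Below vehicle with olanzapine and above with quetiapine were Sdhd (-8.67), the T cell receptor component Cd3d (-2.66), parathyroid hormone (Pth, -2.45), Olfr1340 (-2.27), Dnajc18 (-2.35), Rad51ap1 (-4.28), Tcf15 (-2.36) and the immunoglobulin segment Igkv6-20 (-2.72). Each of these 16 genes had 1 feature. The immediate early genes were the only list whose medians lay on opposite sides of vehicle by more than 0.20 on both arrays. That cutoff is the median spread of the difference between spots of 1 transcript, and it does not measure the error of a list median. The median difference of the immediate early genes was 0.81 and was not tested.

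Features without a gene name stood outside every comparison above. Of 3879 such features measured on both arrays, 17.2% were at least 2-fold apart, against 8.46% of named genes.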

How the results depend on the processing

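With the deposited values read as log2 already, 15 genes were at least 2-fold higher with olanzapine and 5 lower, in place of 815 and 556, and 18 of the 95 named genes past 2-fold stayed so. At 1.5-fold the counts were 1801 and 1342. Only genes with several features gave 39 and 10, of 1134. Both counts moved by less than 1.5 times with exact 0 kept (864 and 634), medians of features (814 and 557), arrays centred (802 and 567), arrays scaled to one spread (713 and 486), every feature on its own (936 and 625) and, added after seeing the data, without chemosensory receptor genes (783 and 521). No named gene past 2-fold changed sign in the alternatives run, but most of these could hardly turn a sign. Reading as log2 multiplies every value by 1 constant, and centring shifts each array by little. Most named genes have 1 feature, for which mean and median are the same. Of these 95 genes 89 stayed past 2-fold with arrays scaled, 94 with 0 kept, and 95 with arrays centred or with medians of features. Of 234 named differences in all, 40 moved by more than the spread between spots with arrays scaled, 1 with 0 kept and 179 when read as log2. Among list medians, 3 moved by more than the spread between spots when values were read as log2, and none did otherwise. The immediate early gene difference of 0.81 ranged from 0.76 to 0.88 apart from that reading, where it was 0.24. No paired analysis was possible because each drug has 1 array. Signal over background is unknown.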
